A study of Homo sapiens with 96 samples.

Results

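The PI3K pathway of 4 human B cell lymphoma lines was followed through 8 genes. They were the PI3K subunits PIK3CD, PIK3R1 and PIK3R3, the adaptors PIK3AP1 and DAPP1, the lipid phosphatase INPP5D, the kinase SGK1 and the mTOR inhibitor DEPTOR. All probe sets that the array annotation gives to these symbols were taken, which was possible for 7 of the 8 genes and gave 17 of the 54675 probe sets of the array. In all, 19775 genes had a probe set of their own. The expression of PIK3AP1, the adaptor known as BCAP, was not analysed here. Where a gene has several probe sets, its main probe set is the brightest on average over the 96 arrays, and it was used in all lines.

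The lines are established cultures, REC1 and Z138 of mantle cell lymphoma, SUDHL4 and OciLy18 of diffuse large B-cell lymphoma. Cells were treated for 4 h with anti-IgG, the F(ab')2-fragment of anti-IgM, whole anti-IgM, the mouse anti-CD20 antibody LT20, the therapeutic anti-CD20 antibody rituximab or a human IgG isotype antibody, REC1 also with the F(ab')2-fragment of rituximab, and were compared with untreated cells of the same line. The labels give 10 µg/ml for every antibody, while the methods give the anti-IgM fragment at a lower mass dose chosen to be equimolar. Each of the 32 groups holds 3 Affymetrix HG-U133 Plus 2.0 arrays, 96 in all. Controls 1 to 3 were the reference, except that anti-IgG in SUDHL4, OciLy18 and Z138 had controls 4 to 6. In REC1 there are no controls 4 to 6, and 1 triplicate served all its treatments, so comparisons within a line share their controls. The sources do not say whether the 3 arrays of a group are independent experiments. The p-values therefore measure only the spread between these arrays, which may be technical.

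Signals are in arbitrary units on a linear scale, and changes are log2 differences between group means of log2 signals (treated minus control), with their standard error (SE). A gene was called risen or fallen when the adjusted p of limma was below 0.05, the change was above 2-fold and the mean signal was above 100 in 1 of the 2 groups. Of 6 B cell markers measured, all had a mean above 100 in SUDHL4, OciLy18 and REC1, and 5 in Z138, where CD22 was at 25.8. Of 6 T cell, 6 monocyte and 6 NK cell markers only CD3D, in REC1, had a mean above 100. The array totals lay between 8528613 and 8530013, as the arrays had been scaled before deposit.

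PI3K adds a phosphate to a membrane lipid and so makes PIP3, to which kinases and adaptors with a PH domain are recruited. In B cells the receptor and its coreceptors recruit PI3K within moments of binding antigen, and lipid phosphatases such as SHIP-1, the product of INPP5D, remove PIP3 again. Downstream lie the kinases AKT and SGK1 and the mTOR complexes, which DEPTOR inhibits.

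The promoters of SGK1 and DAPP1 are shown because SGK1 gave all 13 rises of the genes and the PIP3-binding adaptor DAPP1 fell in 6 of the same comparisons. PIK3R3 also fell in 6 of the 13. The sequences are RefSeq's, of build GRCh38.p14, from 250 bases before to 50 bases after the annotated start, with the bases from the start onwards in capitals. SGK1 lies on the minus strand and the window spans chr6:134318063-134318362, and DAPP1 lies on the plus strand at chr4:99816577-99816876.
SGK1: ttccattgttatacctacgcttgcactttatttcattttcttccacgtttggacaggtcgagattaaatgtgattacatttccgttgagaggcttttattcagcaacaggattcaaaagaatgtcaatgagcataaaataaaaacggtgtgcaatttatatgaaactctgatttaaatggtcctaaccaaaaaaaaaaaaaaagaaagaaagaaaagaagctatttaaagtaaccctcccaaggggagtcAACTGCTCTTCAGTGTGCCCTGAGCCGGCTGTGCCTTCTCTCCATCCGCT
DAPP1: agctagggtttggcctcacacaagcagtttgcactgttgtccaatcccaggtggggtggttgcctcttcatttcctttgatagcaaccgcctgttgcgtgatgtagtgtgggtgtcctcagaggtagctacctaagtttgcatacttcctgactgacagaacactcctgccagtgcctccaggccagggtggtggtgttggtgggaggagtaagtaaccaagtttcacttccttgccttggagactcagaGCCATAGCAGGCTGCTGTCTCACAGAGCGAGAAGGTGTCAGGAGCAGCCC
GC made up 38.0% of the SGK1 window and 54.0% of the DAPP1 window. These windows, and those of 5 further genes of the 8 (PIK3CD, PIK3R1, PIK3R3, PIK3AP1 and INPP5D), were searched on both strands for the letters of AP-1 (TGANTCA), a CRE (TGACGTCA), a FOXO motif (TGTTTAC) and an EGR motif (GCGTGGGCG). Of 35116 promoter windows of the same length, 7.71%, 1.85%, 3.42% and 0.795% held them, in that order. None of the 7 windows held any of these letters. The search covered these windows only, and any other start of a gene was not searched.

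Over the 25 treatment comparisons 156 tests of the 7 genes were made, of which 13 gave a rise and 22 a fall. Over all probe sets tested, 1.68% of tests gave a rise and 1.84% a fall. All 13 rises were of SGK1. The falls were of DAPP1 and PIK3R3 (7 each), PIK3CD (4), DEPTOR (3) and INPP5D (1), and PIK3R1 was not called in any of its 25 comparisons. In the 13 comparisons with an SGK1 rise, DAPP1 fell in 6, PIK3R3 in 6, DEPTOR and PIK3CD in 3 each and INPP5D in 1.

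**Figure D1:**
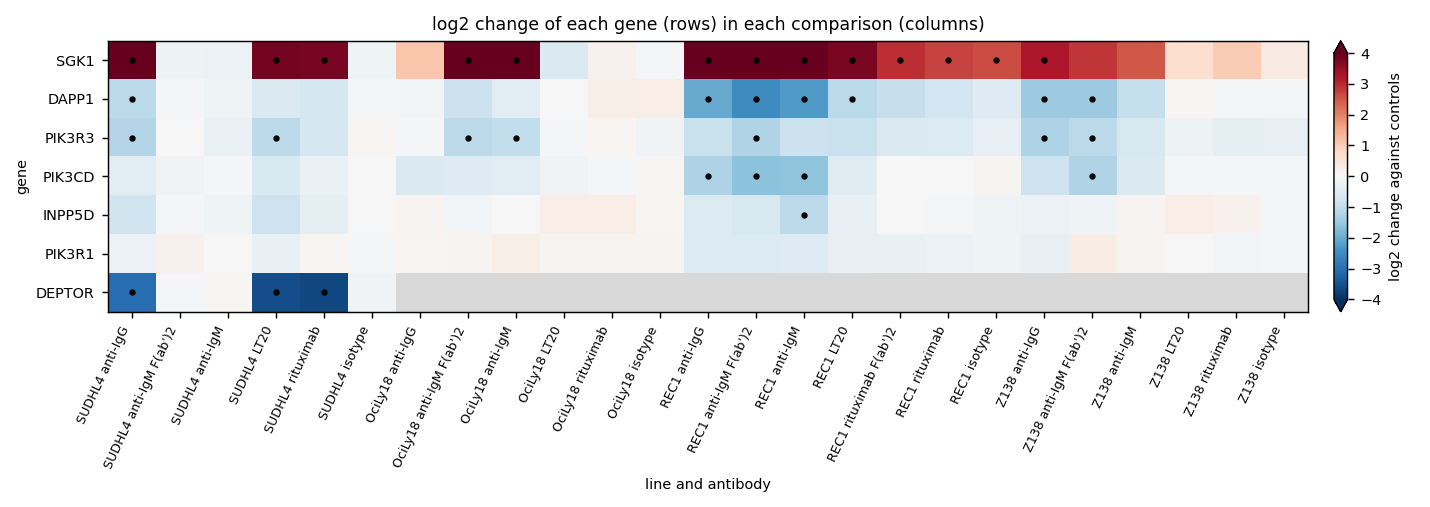
Log2 change (treated minus control, group means of 3 arrays) of the 7 genes in the 25 comparisons of the 4 lines, as colour; a dot marks a called change and grey a gene not tested in that line. SGK1 is the gene with called rises, up to 6.55, and all dots of the other genes mark falls.

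SGK1, the serum- and glucocorticoid-regulated kinase, rose in all 7 comparisons of REC1, in 3 of 6 in SUDHL4, in 2 of 6 in OciLy18 and in 1 of 6 in Z138. Its signal in untreated cells was low, between 7.03 and 74.1 in the 21 control arrays, so that the size of a fold depends on a small denominator. From such a level a rise could be called but a fall could not, because of the limit on the mean. The array measures a whole culture, in which a rise in all cells and a rise in some of them cannot be told apart.

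In REC1 the SGK1 signal after the anti-IgM fragment was 1518, 1533 and 1552, against 21.9, 14.2 and 14.0 in the untreated arrays (log2 change 6.55, SE 0.16, 94.0-fold, adjusted p 1.14e-19 with limma). After whole anti-IgM it was 1483, 1382 and 1306 (6.41, 85.1-fold, adjusted p 1.88e-19). Anti-IgG gave 793, 690.4 and 882 (5.59, 48.1-fold, adjusted p 3.01e-18). All 9 of these arrays lay far above the controls, and the anti-IgG arrays lay below those of the anti-IgM antibodies. By the same rule 6.59% of all tested probe sets rose after the fragment, 4.83% after anti-IgM and 3.92% after anti-IgG.

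The anti-CD20 antibodies and the isotype antibody gave smaller SGK1 rises in REC1. LT20 gave 238, 228 and 208 against the same 3 controls (log2 change 3.78, 13.7-fold, adjusted p 8.75e-15, where 2.42% of all probe sets rose). The rituximab fragment gave 149, 129 and 105.5 (2.96, 7.75-fold, adjusted p 1.16e-12, background 1.53%), and whole rituximab 98.1, 119.5 and 102 (2.70, 6.51-fold, adjusted p 7.62e-12, background 1.04%). The isotype antibody gave 123, 81.2 and 101 (2.62, 6.15-fold, adjusted p 2.65e-11), where 0.533% of all probe sets rose. No treated array overlapped with a control array in any of these. The rise with the isotype antibody was no longer called without isotype replicate 1 (2.47), which left a group mean under 100.

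Set against the isotype arrays in place of the untreated ones, SGK1 differed by 0.08 after rituximab (adjusted p 0.905) and by 0.34 after its fragment (adjusted p 0.196), and neither was called. LT20 remained called at 1.16 (adjusted p 1.31e-05), anti-IgG at 2.97, anti-IgM at 3.79 and the fragment at 3.94. The SGK1 mean was 106.6 ± 11.4 after rituximab, against 101.7 ± 20.9 after the isotype antibody (SD, n = 3 each), and the arrays of both overlapped.

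In SUDHL4 the SGK1 signal was 1843, 1794.5 and 1759 after anti-IgG, against 53.9, 74.1 and 66.1 in controls 4 to 6 (log2 change 4.81, SE 0.11, 28.0-fold, adjusted p 2.25e-21, where 3.25% of all probe sets rose). LT20 gave 948, 904.5 and 969 and rituximab 880.0, 921 and 963, against 71.5, 61.2 and 64.9 in controls 1 to 3. The changes were 3.84 for LT20 (14.3-fold, adjusted p 6.15e-19, background 2.18%) and 3.81 for rituximab (14.0-fold, adjusted p 7.42e-19, background 2.59%). The anti-CD20 arrays lay close together and below those of anti-IgG. Whole anti-IgM, its fragment and the isotype antibody left means of 56.4, 56.9 and 58.5, with changes between -0.23 and -0.17 and overlapping arrays.

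In OciLy18 SGK1 was at 215, 226 and 238 after anti-IgM (log2 change 4.37, SE 0.24, 20.7-fold, adjusted p 8.56e-13, background 2.45%), against 8.61, 12.2 and 12.4 in the controls. The fragment gave 174.5, 226 and 213 against the same arrays (4.22, 18.6-fold, adjusted p 1.36e-12, background 2.18%). Anti-IgG gave 29.2, 29.7 and 35.4 against 17.2, 12.7 and 14.3 in controls 4 to 6, a change of 1.1 (adjusted p 0.00149) that was not called because both means were under 100. Rituximab, LT20 and the isotype antibody left SGK1 at means of 12.2, 7.60 and 10.9.

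In Z138 SGK1 was at 198, 219 and 207 after anti-IgG, against 26.0, 21.5 and 19.3 in controls 4 to 6 (log2 change 3.23, SE 0.25, 9.41-fold, adjusted p 2.14e-10, where 2.93% of all probe sets rose). The anti-IgM fragment gave 71.2, 80.2 and 71.5 (2.87, adjusted p 1.98e-09) and whole anti-IgM 58.3, 64.2 and 47.5 (2.47, adjusted p 3.89e-08), against 7.03, 16.8 and 8.88 in controls 1 to 3. These arrays lay above all controls, but no mean reached 100 and neither change was called. The control triplicates differed, with a mean of 22.2 in controls 4 to 6 and of 10.9 in controls 1 to 3 (1.12, adjusted p 0.0011). Rituximab gave 25.9, 17.9 and 19.3, a change of 1.03 against controls 1 to 3 (adjusted p 0.0242) and of -0.09 against controls 4 to 6.

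**Figure D2:**
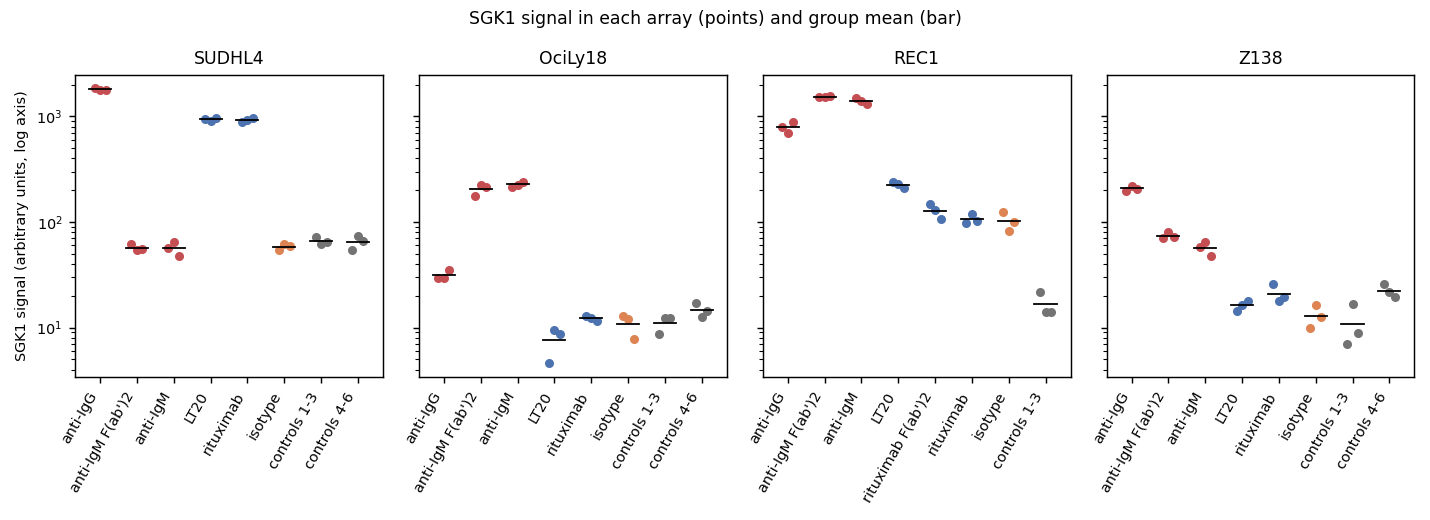
SGK1 signal (arbitrary units, logarithmic axis) in each of the 96 arrays, by line and treatment, with the untreated controls at the right of each panel; points are arrays and bars group means. The highest groups are SUDHL4 with anti-IgG at 1798.7 and REC1 with the anti-IgM fragment at 1534.5, and in OciLy18 only the anti-IgM antibodies pass 100.

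DEPTOR, which binds and inhibits mTOR in both of its complexes, passed a mean of 100 in SUDHL4 only. Its signal in untreated SUDHL4 lay between 814 and 999 in 6 arrays, whereas all group means of the other lines lay between 8.72 and 43.7, so that its response to treatment was tested in SUDHL4 alone. In that line DEPTOR fell in the same 3 comparisons in which SGK1 rose.

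After rituximab DEPTOR was at 65.7, 76.5 and 92.1, against 966, 934 and 999 in controls 1 to 3 (log2 change -3.64, SE 0.12, 12.5-fold, adjusted p 1.12e-17, where 2.69% of all probe sets fell). LT20 gave 92.3, 81.1 and 75.0 against the same controls (-3.55, 11.7-fold, adjusted p 1.86e-17, background 3.85%). Anti-IgG gave 123.5, 116 and 77.6, against 874, 896 and 814 in controls 4 to 6 (-3.06, 8.32-fold, adjusted p 1.92e-16, background 4.25%). The treated and control arrays were separated by a wide gap in each case.

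Whole anti-IgM left DEPTOR at a mean of 994.4 ± 40.9 (SD, n = 3) and its fragment at 939.9 ± 15.3, with changes of 0.04 and -0.04 and arrays that overlapped with the controls. The isotype antibody gave 869.5, 927 and 834, all below controls 1 to 3, but the change of -0.14 was not significant (adjusted p 1.0). The second DEPTOR probe set had group means of at most 4.36 and was not read.

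**Figure D3:**
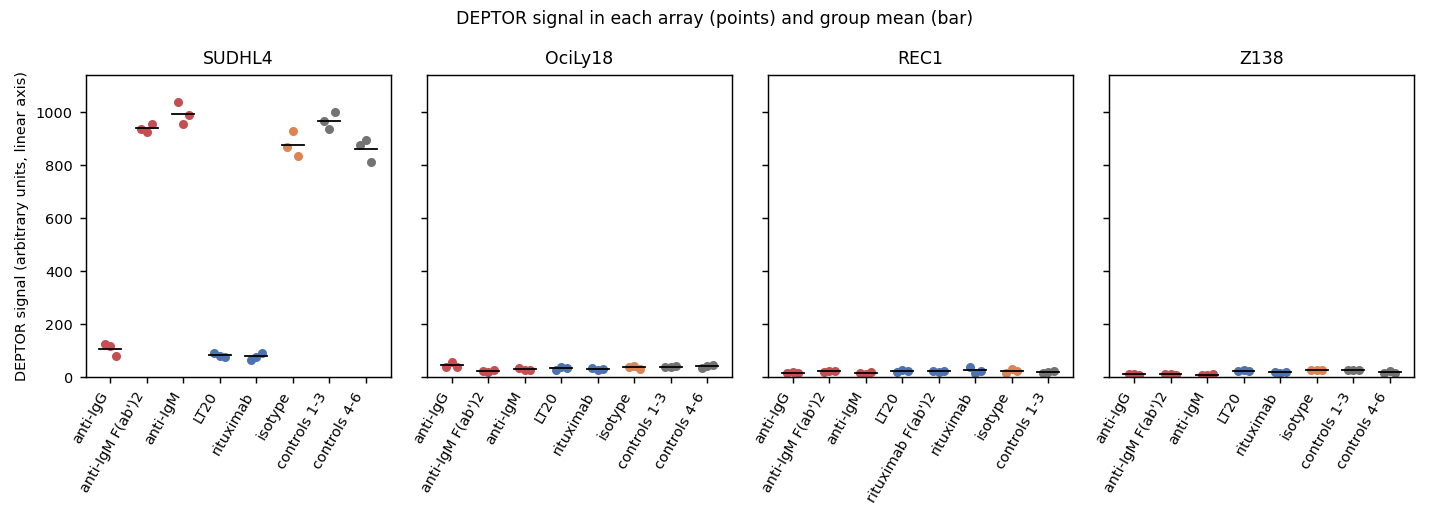
DEPTOR signal (arbitrary units, linear axis from 0) in each of the 96 arrays, by line and treatment, with controls at the right; points are arrays and bars group means. In SUDHL4 the anti-IgG, LT20 and rituximab arrays lie between 65.7 and 123.5 and all other arrays at 814 or above, while the other 3 lines stay low throughout.

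PIK3CD encodes the delta catalytic subunit, the form of PI3K that dominates in lymphocytes. It fell in 4 comparisons, 3 in REC1 and 1 in Z138, and none of its 25 changes was a rise. In REC1 it was at 296, 288 and 338 after the anti-IgM fragment (log2 change -1.63, SE 0.13, 3.09-fold, adjusted p 2.42e-10) and at 361, 276 and 295 after whole anti-IgM (-1.62, 3.07-fold, adjusted p 3.02e-10), against 949, 895 and 999 in the controls. Anti-IgG gave 396, 350.6 and 472 against the same controls (-1.23, 2.35-fold, adjusted p 3.29e-08). All 9 arrays lay below the lowest control. In these comparisons 7.78% (fragment), 7.15% (whole anti-IgM) and 6.7% (anti-IgG) of all tested probe sets fell.

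In Z138 the anti-IgM fragment left PIK3CD at 607, 624 and 581, against 1324, 1496 and 1363 in controls 1 to 3 (log2 change -1.21, SE 0.06, 2.31-fold, adjusted p 9.64e-14, where 2.04% of all probe sets fell). Set against controls 4 to 6 instead, the change was -0.94 and not called. Anti-IgG in Z138 gave -0.83 (adjusted p 3.97e-11), which was -1.09 and called against controls 1 to 3. By adjusted p alone PIK3CD was lower in 13 of 25 comparisons and higher in none, where 16.6% of all tests were lower and 14.3% higher by that criterion. In OciLy18 those were anti-IgG (-0.59), the anti-IgM fragment (-0.53) and anti-IgM (-0.43), and in SUDHL4 LT20 (-0.60), anti-IgG (-0.45) and rituximab (-0.27).

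PIK3R3 encodes the regulatory subunit p55-gamma, which holds the catalytic subunit and binds phosphorylated tyrosines. It fell in 7 comparisons, at least 1 in each line. By adjusted p alone it was lower in 14 of 25, where 16.6% of all tests were lower by that criterion. In Z138 it was at 133.2, 168 and 128 after anti-IgG, against 348, 386 and 279 in controls 4 to 6 (log2 change -1.24, SE 0.13, 2.36-fold, adjusted p 3.24e-08, where 2.25% of all probe sets fell). In SUDHL4 anti-IgG gave 63.7, 77.0 and 83.5, against 164, 153 and 186 (-1.17, 2.25-fold, adjusted p 1.95e-08). The treated arrays lay below all controls in both.

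The other 5 PIK3R3 falls were close to the 2-fold limit, and none of them was called with an offset of 16 added to the signals. In OciLy18 anti-IgM gave 125, 130.4 and 122 and the fragment 116, 125.5 and 123, against 226, 280.4 and 252 in the controls (log2 changes -1.0 and -1.05), in comparisons in which 1.04% (anti-IgM) and 1.78% (fragment) of all probe sets fell. The anti-IgM call was lost without control replicate 2 (-0.92) or 3 (-1.0) and without anti-IgM replicate 1 (-0.99) or 3 (-0.98), and that of the fragment without control replicate 2 (-0.97). In SUDHL4 LT20 gave 127, 99.1 and 130.3, against 234, 245 and 249 (-1.04), a call that was lost without LT20 replicate 2 (-0.92) and against controls 4 to 6 (-0.50). Those 2 SUDHL4 control triplicates themselves differed, with a mean of 167.8 in controls 4 to 6 and of 242.8 in controls 1 to 3 (-0.54, adjusted p 0.00107). In Z138 the anti-IgM fragment gave 176, 161.5 and 202, against 378, 369.6 and 354 (-1.04), a call lost without fragment replicate 2 (-0.96). In REC1, where PIK3R3 was lowest in untreated cells, the fragment gave 48.5, 72.3 and 47.4, against 127, 112.5 and 137 (-1.19, adjusted p 1.82e-05), and LT20 (-0.89) was called only without LT20 replicate 2 (-1.10).

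PIK3R1, which encodes the more widely used regulatory subunit p85-alpha, changed little. Its changes ran between -0.55 and 0.30, and the 32 group means lay between 338.1 and 546.3. Where 16.6% of all tests were lower and 14.3% higher by adjusted p alone, PIK3R1 was lower in 8 comparisons and higher in 2. Of the lower ones 5 were in REC1, with 345, 322 and 348 after the anti-IgM fragment, against 523, 453 and 516 in the controls (log2 change -0.55, adjusted p 2.23e-05). The higher ones were the anti-IgM fragment in Z138 (0.30, adjusted p 0.00181) and anti-IgM in OciLy18 (0.23, adjusted p 0.032). Both turned negative against controls 4 to 6 (-0.04 and -0.22). The other 2 PIK3R1 probe sets were not called in any of 25 comparisons either.

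DAPP1, also called Bam32, is an adaptor of B cells that binds PIP3 and is phosphorylated after receptor ligation. It fell in 7 comparisons and by adjusted p alone was lower in 15 of 25, where 16.6% of all tests were lower by that criterion. In each of these 15 the treated arrays lay below all controls. In REC1 it was at 78.0, 82.8 and 94.8 after the anti-IgM fragment, against 474, 523 and 459 in the controls (log2 change -2.51, SE 0.12, 5.71-fold, adjusted p 1.32e-14). Whole anti-IgM gave 96.8, 98.9 and 108 (-2.26, 4.79-fold, adjusted p 1.03e-13) and anti-IgG 106, 137 and 120.5 (-2.01, 4.03-fold, adjusted p 1.09e-12).

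LT20 gave 215, 235 and 239 in REC1 (log2 change -1.08, adjusted p 9.41e-08, where 2.7% of all probe sets fell). The rituximab fragment (-0.92), rituximab (-0.76) and the isotype antibody (-0.53, adjusted p 0.00381) followed in that order and were not called, although that of the rituximab fragment was called without its replicate 3 (-1.02). Against the isotype arrays LT20 was at -0.55 and no longer called, while anti-IgG (-1.48), anti-IgM (-1.73) and the anti-IgM fragment (-1.99) were. Against the controls, the rituximab fragment was called on the second DAPP1 probe set (-1.12) and not on the third (-0.66).

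In Z138 anti-IgG gave DAPP1 signals of 125, 151 and 153, against 380.3, 386 and 412 in controls 4 to 6 (log2 change -1.46, SE 0.11, 2.76-fold, adjusted p 6.8e-11). The anti-IgM fragment gave 94.3, 123 and 114, against 330.5, 283 and 284 in controls 1 to 3 (-1.44, 2.72-fold, adjusted p 1.02e-10). Whole anti-IgM gave 151, 169 and 148 (-0.94), which passed the 2-fold limit only without anti-IgM replicate 2 (-1.0) or against controls 4 to 6 (-1.33). In SUDHL4 anti-IgG gave 164, 199 and 162, against 352, 355 and 397 (-1.08, adjusted p 7.66e-09), with rituximab at -0.70 and LT20 at -0.58, neither of which was called. On the second DAPP1 probe set both were called (rituximab -1.27, LT20 -1.12), and on the third neither was (-0.91 and -0.80).

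In OciLy18 the anti-IgM fragment gave 154, 178 and 157, against 283, 321 and 277 (log2 change -0.85, adjusted p 8.44e-08), and was called against controls 4 to 6 (-1.17). Anti-IgG left it at 340.5 ± 18.3, against 366.2 ± 22.7 in controls 4 to 6 (SD, n = 3 each). The 2 further DAPP1 probe sets that were tested fell in 12 and 10 of 25 comparisons, with the REC1 fragment at -3.42 and -3.03, and neither rose in any. Both fell in OciLy18 with the anti-IgM fragment (-1.06 and -1.32).

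INPP5D encodes SHIP-1, the phosphatase of haematopoietic cells that removes PIP3 and acts with the inhibitory Fc receptor. It fell in 1 comparison, whole anti-IgM in REC1, with 395, 447 and 336, against 728, 779 and 957 in the controls (log2 change -1.06, SE 0.12, 2.09-fold, adjusted p 7.63e-08). The call was lost without control replicate 3 or without anti-IgM replicate 3 (-0.95 each) and against the isotype arrays (-0.90). The second INPP5D probe set fell in the same comparison (-1.60). By adjusted p alone INPP5D was lower in 7 of 25 comparisons, 4 in REC1 and 3 in SUDHL4, and in none of those of OciLy18 and Z138. By that criterion 16.6% of all tests were lower. In strong comparisons far more passed in either direction, such as 8070 of 14068 probe sets with anti-IgM in REC1.

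In SUDHL4 LT20 gave 190.4, 162 and 189 for INPP5D, against 322, 319 and 328 in controls 1 to 3 (log2 change -0.84, adjusted p 1.05e-06), and anti-IgG 297, 306 and 266, against 402, 608 and 527 in controls 4 to 6 (-0.80, adjusted p 1.94e-06). Neither was called. The control triplicates differed here as well, with means of 512.2 in controls 4 to 6 and 323.1 in controls 1 to 3 (0.64, adjusted p 6.82e-05), and against controls 4 to 6 LT20 (-1.49) and rituximab (-1.05) were called. The anti-IgG change was -0.16 against controls 1 to 3 and -0.13 against the isotype arrays (adjusted p 0.31).

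**Figure D4:**
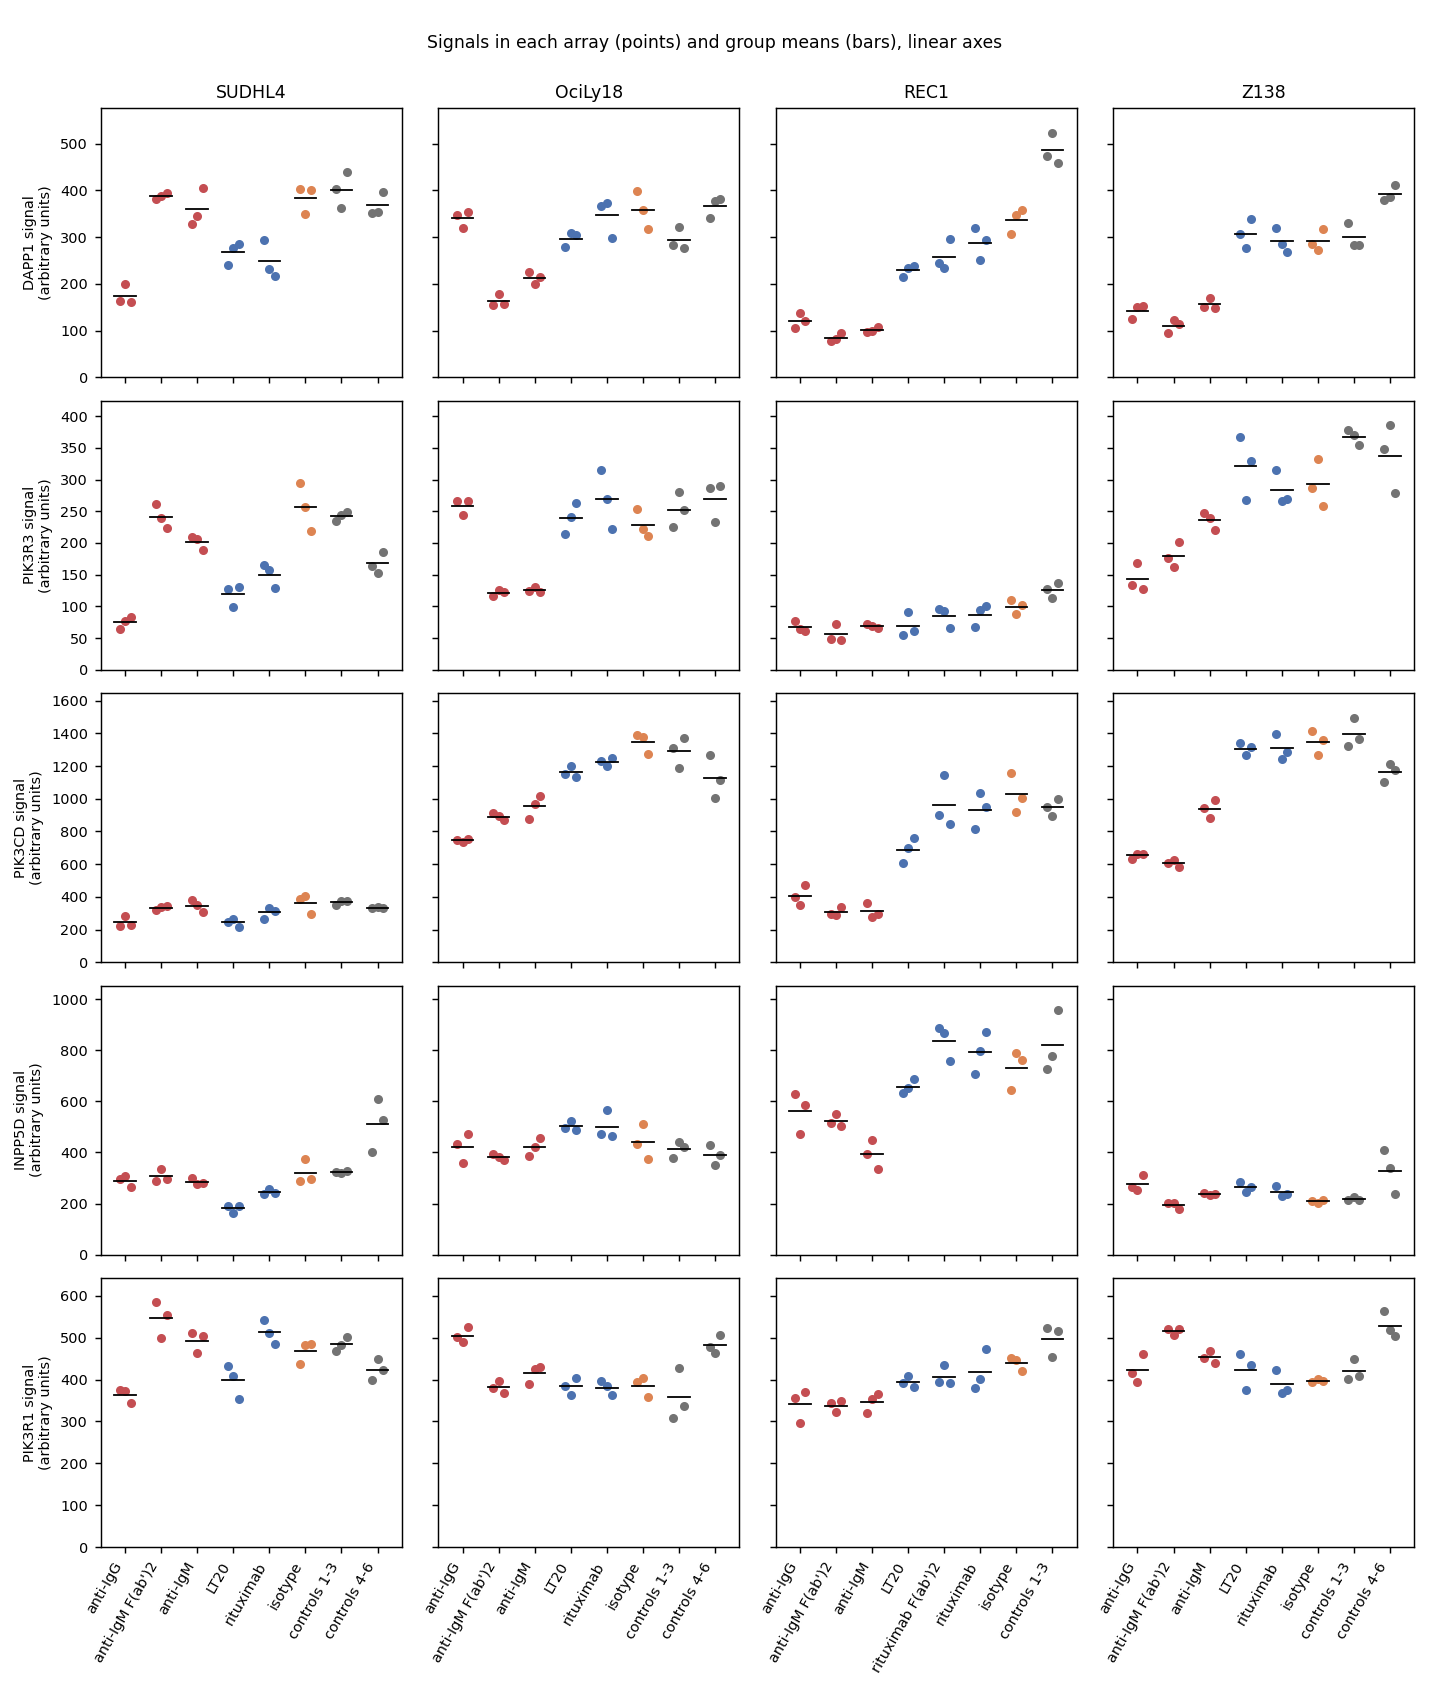
Signals (arbitrary units, linear axes) of PIK3CD, PIK3R3, PIK3R1, DAPP1 and INPP5D in each array, by line and treatment, with untreated controls at the right. Points are arrays and bars group means. In REC1 the DAPP1 means fall to 85.2 after the anti-IgM fragment, against 485.4 in controls, while the PIK3R1 means of all lines stay between 338.1 and 546.3.

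In untreated cells 36 differences between lines were tested for the 6 genes other than SGK1, and 11 were called, where 22% of all tests were called. DEPTOR was at 913.9 ± 66.8 in SUDHL4 (SD, n = 6), against 39.8 in OciLy18, 22.7 in Z138 and 18.8 in REC1, 3 of the 11 calls. No size is given for these differences, because the lower signals carry no detection call. PIK3CD was lowest in SUDHL4, at 349.4 ± 20.5, against means of 947.7 ± 51.9 (REC1, n = 3), 1209.3 ± 134.3 (OciLy18, n = 6) and 1278.5 ± 143.1 (Z138, n = 6) (-1.44, -1.79 and -1.87). The OciLy18 and Z138 levels of PIK3CD did not differ beyond their spread (-0.08, 95% confidence interval -0.23 to 0.07).

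INPP5D was highest in REC1, at 821.1 ± 120.3, against 273.0 ± 81.6 in Z138 (log2 difference, REC1 minus Z138, 1.63). SUDHL4 at 417.6 and OciLy18 at 402.0 lay below REC1 by about the 2-fold limit (-1.01 and -1.03) and did not differ from each other beyond their spread (0.01, interval -0.32 to 0.34). The SUDHL4 difference was not called without any 1 of SUDHL4 control replicates 1 to 3 (-0.95 each) or REC1 control replicate 3 (-0.90), nor that of OciLy18 without that REC1 array (-0.91) or OciLy18 control replicate 5 (-0.99). PIK3R3 was lowest in REC1, at 125.5 ± 12.2, with OciLy18 at 261.3 (OciLy18 minus REC1, 1.06, or 0.98 and not called without REC1 control replicate 2) and Z138 at 352.4 (REC1 minus Z138, -1.49), and SUDHL4 at 205.3 in between. DAPP1 lay between 329.9 in OciLy18 and 485.4 in REC1 and PIK3R1 between 420.0 in OciLy18 and 497.4 in REC1, and no difference of theirs was called. SGK1 was too low for a test, at 65.3 in SUDHL4, 16.7 in REC1, 16.6 in Z138 and 12.9 in OciLy18.

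The anti-IgM antibody was used whole and as a fragment without its Fc part. None of 25 differences between fragment and whole antibody (fragment minus whole) was called for the 7 genes, where 0.051% of all tests were called. Without the fold limit 4 had an adjusted p below 0.05. They were PIK3CD in Z138 (-0.63, adjusted p 5.67e-07), DAPP1 in Z138 (-0.50, adjusted p 0.00372) and OciLy18 (-0.39, adjusted p 0.0155), and INPP5D in REC1 (0.42, adjusted p 0.0362). The first 3 were lower after the fragment and INPP5D was higher after it. For SGK1 the 95% confidence intervals of the log2 difference were -0.17 to 0.46 in REC1, -0.63 to 0.33 in OciLy18, -0.09 to 0.89 in Z138 and -0.19 to 0.23 in SUDHL4. The mass doses of the fragment and the whole antibody may have differed, as given above.

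Between the anti-CD20 antibodies (LT20 minus rituximab) 1 of 25 differences was called, where 0.0601% of all tests were called. SGK1 in REC1 was at 224.7 ± 15.2 after LT20 and 106.6 ± 11.4 after rituximab (log2 difference 1.08, 95% confidence interval 0.77 to 1.39, adjusted p 0.00011), and all LT20 arrays lay above all rituximab arrays. With an offset of 16 added to the signals it was not called. In SUDHL4 the same difference was 0.03 for SGK1 (interval -0.18 to 0.24) and 0.09 for DEPTOR (interval -0.15 to 0.33).

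The change after anti-IgG was set against the change after whole anti-IgM in each line. Of 25 such differences 3 were called, where 2.52% of all tests were called. SGK1 changed more with anti-IgG in SUDHL4 by 5.04 on the log2 scale (adjusted p 2.84e-18 with limma) and less in OciLy18 (-3.27, adjusted p 1.05e-06). DEPTOR in SUDHL4 fell with anti-IgG but not with anti-IgM (0.04), a difference of -3.10 (adjusted p 3.74e-13). The paper reports IgG but no IgM on the surface of SUDHL4 by flow cytometry. The SUDHL4 differences therefore do not compare antibodies that both have a target there. In REC1 the SGK1 change was smaller with anti-IgG (-0.82, interval -1.14 to -0.51, adjusted p 0.00626) but within 2-fold, and in Z138 the difference of 0.77 (interval 0.07 to 1.46) had an adjusted p of 0.143. The Z138 difference was 1.03 and called without Z138 control replicate 1. PIK3R3 in OciLy18 (0.94) was called without control replicate 1 (1.02) or 6 (1.0), and DAPP1 in SUDHL4 (-0.92) without anti-IgG replicate 2 (-1.01). With the anti-IgG arrays set directly against the anti-IgM arrays, 7 of 25 differences were called, where 4.44% of all tests were. These were the same 3 and SGK1 in Z138 (1.88), PIK3R3 in SUDHL4 (-1.44) and OciLy18 (1.04), and DAPP1 in SUDHL4 (-1.04).

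Responses were also compared between lines, as differences between log2 changes. The receptor response was that to anti-IgG in SUDHL4 and to the anti-IgM fragment in OciLy18, REC1 and Z138, and the anti-IgG response was compared as well. Of 84 such differences 27 were called, 10 of SGK1, 8 of DEPTOR, 5 of DAPP1 and 2 each of PIK3CD and PIK3R3, where 8.77% of all tests were called. These differences carried no limit on the mean signal. All 8 of DEPTOR rest on signals of 43.7 or less in at least 1 line and are not read further, which leaves 19 of 72. The SGK1 log2 change in the receptor response was 6.55 in REC1, 4.81 in SUDHL4, 4.22 in OciLy18 and 2.87 in Z138, over control means of 16.7, 64.7, 11.1 and 10.9. The sizes of these changes depend on the low control signals, and with an offset of 16 they were 5.58, 4.5, 3.02 and 1.76 in the same order of lines. The treated level was not in that order, with 1798.7 in SUDHL4 and 1534.5 in REC1. Nor were the changes against the isotype arrays of each line, with 4.95 in SUDHL4, 4.25 in OciLy18, 3.94 in REC1 and 2.55 in Z138. SUDHL4 minus REC1 was -1.75 (SE 0.28, adjusted p 3.85e-07), OciLy18 minus Z138 was 1.35 (adjusted p 0.000211, but 0.99 and not called without Z138 control replicate 2), and the changes of SUDHL4 and OciLy18 were not called different. Against the untreated controls DAPP1 fell further in REC1 than in each of the other lines (SUDHL4 minus REC1 1.44, OciLy18 minus REC1 1.67, REC1 minus Z138 -1.07, adjusted p 2.28e-12, 9.56e-15 and 2.3e-08 with limma). The difference from Z138 was -0.99 and not called without Z138 fragment replicate 2. Against the isotype arrays the DAPP1 changes were -1.99 in REC1, -1.41 in Z138, -1.14 in SUDHL4 and -1.13 in OciLy18. Differences between lines were not tested against that reference. PIK3CD fell further in REC1 than in SUDHL4 (1.18) and OciLy18 (1.09). In the receptor response SUDHL4 had another antibody and control triplicate than the other lines, so line and antibody cannot be told apart there. With anti-IgG in both lines, the DAPP1 difference of SUDHL4 minus REC1 was 0.93 and not called. Nor was any anti-IgG difference called for PIK3CD, for DAPP1 between REC1 and Z138, or for SGK1 between SUDHL4 and REC1.

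Around these genes 85 genes of the pathway in 6 lists were followed, 78 of them with a probe set and 51 to 61 tested in a line. Over the 25 comparisons 51 rises and 59 falls were called in 1399 tests (3.65% and 4.22%), where 1.68% of all tests gave a rise and 1.84% a fall. The list counts include the 13 rises and 22 falls of the genes above, which were chosen with earlier results known. That choice partly sets the shares of the lists. Of 11 PI3K subunits with a probe set, PIK3R3 and PIK3CD gave all 11 falls in 218 tests (5.05%), and no subunit rose. These are the falls of PIK3R3 and PIK3CD already given above. SGK kinases and their substrates gave 20 rises in 106 tests (18.9%) and no fall, 13 of the rises being of SGK1 itself. SGK1, and NDRG1 in OciLy18, entered the tests only through treated groups with a mean above 100. They could therefore be called risen but not fallen, which partly sets the counts of this list. The PIP3-binding adaptors and kinases gave 25 falls (8.31%) and 4 rises (1.33%) in 301 tests, with 7 of the falls from DAPP1. Most falls were in REC1, with 6 after anti-IgM, 5 each after its fragment and anti-IgG and 3 after LT20. In these comparisons 7.15%, 7.78%, 6.7% and 2.7% of all probe sets fell, in that order. The list had no fall in OciLy18, and only DAPP1 fell in Z138. The PI3K-recruiting coreceptors and adaptors gave 11 falls (8.4%) and 6 rises (4.58%) in 131 tests. SH2B2 gave 3 of these falls in SUDHL4, 3 in REC1 and 2 in Z138. The brakes of PI3K gave 2 falls (1.07%) and 9 rises (4.81%) in 187 tests, and all 9 rises were of TRIB3. The mTOR complexes with the TSC axis gave 10 falls (2.19%) and 12 rises (2.63%) in 456 tests, shares near those of all tests.

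In REC1 the further list genes named were SESN3, PLEKHA2, PLEKHA1 and SH2B2, which fell, and TRIB3 and DDIT4, which rose. SESN3, a sestrin, which restrains mTOR complex 1, fell in 7 of 7 comparisons, to 51.7 ± 6.44 after anti-IgM, against 411.6 ± 68.9 in controls (SD, n = 3 each, log2 change -2.99, adjusted p 4.53e-13), and also with the isotype antibody (-1.12, adjusted p 5.98e-05). PLEKHA2, a PH domain adaptor, fell in 4 (-2.09 after anti-IgM), and its relative PLEKHA1 in 4 (-1.95). SH2B2, an SH2 adaptor, fell in 3 (-2.33 after anti-IgM). TRIB3, a pseudokinase that binds AKT, rose in 6 of 7 comparisons, to 1800.5 ± 202.0 after anti-IgM, against 136.2 ± 10.5 in controls (3.72, adjusted p 4.93e-15). DDIT4, an inhibitor of mTOR complex 1, rose after anti-IgG (1.91) and anti-IgM (1.65).

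In SUDHL4 4 genes were called in the same 3 comparisons as SGK1 and DEPTOR, those with anti-IgG, LT20 and rituximab. SH2B2 fell (-2.22, -1.56 and -1.39), as did TCL1A, a coactivator of AKT (-1.17, -1.20 and -1.07), in that order of treatments. VAV3, a guanine nucleotide exchange factor that binds PIP3, rose by 1.79, 1.41 and 1.55. NEDD4L, a ubiquitin ligase that SGK1 phosphorylates, rose by 1.81, 1.27 and 1.13. The control means of anti-IgG differed from those of LT20 and rituximab. They were 99.8 against 157.2 for VAV3, 107.1 against 170.9 for NEDD4L, 1030.8 against 668.9 for SH2B2 and 721.3 against 964.6 for TCL1A. Sizes are therefore not ranked between anti-IgG and the others. Treated means, in the same order, were 344.8, 420.0 and 458.8 for VAV3 and 376.0, 408.5 and 374.4 for NEDD4L. They were 220.9, 227.9 and 256.5 for SH2B2 and 320.4, 418.9 and 458.3 for TCL1A. In REC1 VAV3 fell after anti-IgM (-1.27), its fragment (-1.59) and anti-IgG (-1.11), to 286.8 ± 14.1 after anti-IgG, against 619.6 ± 73.4 in controls (SD, n = 3 each), and the difference between the lines was not tested. In OciLy18 NDRG1, a substrate of SGK1, rose to 124.9 ± 6.55 after anti-IgM and 132.8 ± 3.93 after the fragment, against 28.9 ± 4.47 in controls (SD, n = 3 each, 2.12 and 2.21). TRIB3 rose (1.70 and 1.40) and the adaptor GAB3 fell (-1.24 and -1.62) in the same comparisons. In Z138 the ubiquitin ligase CBLB, which restrains receptor signalling, rose after anti-IgM (1.14), the fragment (1.41) and anti-IgG (1.5), and SH2B2 fell after the fragment (-1.17) and anti-IgG (-1.25).

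The genes whose 25 log2 changes were most like those of each gene were found among 9090 genes by Pearson's r. The comparisons share controls within a line and are not independent, so r describes these 25 points and carries no p. For SGK1 they were IGF2R (0.963), M6PR (0.958) and GNPDA1 (0.941), the first 2 of which encode the mannose-6-phosphate receptors, with changes of IGF2R between -0.48 and 1.95. For DAPP1 they were SUSD3 (0.967), HMGN5 (0.964) and RASSF2 (0.955), and for DEPTOR, which was near background outside SUDHL4, DCAF17 (0.959), SH3YL1 (0.935) and MRPL16 (0.932). The changes of PIK3CD were most like those of SYK (0.906), the kinase next to the B cell receptor, C16orf74 (0.900) and OGFRL1 (0.892). Those of INPP5D were most like those of FCGR2B (0.931), the inhibitory Fc receptor, whose changes ran between -2.30 and 0.59, PGAP3 (0.920) and ABI3 (0.913). PIK3R3 was nearest to SAC3D1 (0.905), SSBP3 (0.904) and MMD (0.903), and PIK3R1 to C18orf54 (0.920), ZKSCAN4 (0.919) and OGA (0.915).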

How the data were processed

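The deposited table gives each probe set a linear signal intensity. The authors' methods name GCOS as its software, and the submitters' processing notes name MAS5. The software version, the scaling target and detection calls are not given in the sources used here. 2 further sheets hold the authors' group means and change factors and were not used.

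Log2 was taken after raising signals under 1 to 1, with no further normalization, which leaves differences between low signals imprecise. Tests covered the probe sets whose mean passed 100 in some group of the line, namely 13069 (SUDHL4), 13969 (OciLy18), 14068 (REC1) and 13799 (Z138). The arrays of a line were fitted together by their groups with limma 3.58.1 (lmFit and eBayes with variance trend) in R 4.3.3, with the data.table package (1.17.8) to read the files. P-values were adjusted by Benjamini-Hochberg over all probe sets of a comparison. Untreated lines were compared in 21 arrays and responses of lines in 1 model of 96 arrays, where differences in response carried no limit on the mean. The method was tested on simulated data. Of the probe sets 41097 carry 1 symbol, 1801 several and 11777 none, and only those with 1 symbol were named. Array number limits the precision, and no array was left out.

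The 8 genes, the 6 lists and the rules were chosen with earlier results of these data known. Named beside the 8 genes were, per line, the list members called in at least 2 comparisons (at most 6, by the largest change) and the 3 genes most like each of the 7 measured in their changes. Alternatives were an offset of 16, quantile normalization, no filter, no variance trend, no fold limit, other control or isotype arrays as reference, the second probe set, a replicate block and leaving out each array.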

Additional observations from a re-analysis of the deposited data

Results flagged for a closer look

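Among 21 groups of 6 untreated arrays (7 genes in the 3 lines with 6 controls) 1 held an array that stood apart from the others by Dixon's criterion at 95%. It was PIK3R3 in Z138, whose lowest array had a signal of 278.85. Chance gives such an array in about 1 of 20 groups.

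The 27 differences between lines in their log2 changes were called by a test of the difference itself, with no limit on the mean signal. The 8 of DEPTOR are listed for completeness and are not read. In the receptor response SGK1 gave -1.75 (SUDHL4 minus REC1), 1.94 (SUDHL4 minus Z138), -2.34 (OciLy18 minus REC1), 1.35 (OciLy18 minus Z138) and 3.69 (REC1 minus Z138). DAPP1 gave 1.44 (SUDHL4 minus REC1), 1.67 (OciLy18 minus REC1) and -1.07 (REC1 minus Z138), and PIK3CD 1.18 (SUDHL4 minus REC1) and 1.09 (OciLy18 minus REC1). DEPTOR gave -2.25 (SUDHL4 minus OciLy18), -3.25 (SUDHL4 minus REC1), -1.76 (SUDHL4 minus Z138) and 1.49 (REC1 minus Z138).

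In the anti-IgG response SGK1 gave 3.71 (SUDHL4 minus OciLy18), 1.58 (SUDHL4 minus Z138), -4.49 (OciLy18 minus REC1), -2.13 (OciLy18 minus Z138) and 2.35 (REC1 minus Z138). DAPP1 gave 1.91 (OciLy18 minus REC1) and 1.36 (OciLy18 minus Z138), and PIK3R3 -1.12 (SUDHL4 minus OciLy18) and 1.18 (OciLy18 minus Z138). DEPTOR gave -3.11 (SUDHL4 minus OciLy18), -2.87 (SUDHL4 minus REC1), -2.10 (SUDHL4 minus Z138) and 1.02 (OciLy18 minus Z138). Outside SUDHL4 the DEPTOR group means are 43.7 at most, so each of these DEPTOR differences rests on low signals in at least 1 line. Both lines are that low in the DEPTOR differences of REC1 minus Z138 and of OciLy18 minus Z138. The last (OciLy18 minus Z138) was not called without OciLy18 control replicate 4 (0.92), OciLy18 anti-IgG replicate 2 (0.79), Z138 control replicate 5 (0.81) or Z138 anti-IgG replicate 3 (0.73), and that of SGK1 for OciLy18 minus Z138 in the receptor response not without Z138 control replicate 2 (0.99).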

How the results depend on the processing

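Limits are the 3 arrays per group, low signals with no detection calls, and control triplicates that differ from each other. Without the fold limit (the limit on the mean kept) there were 15 rises and 60 falls of the genes in 156 tests and 249 rises and 244 falls of the lists in 1399, where 13.5% of all tests were higher and 16% lower. By that criterion there were 22 differences between untreated lines (63.7% of all tests), 4 between fragment and whole anti-IgM (5.43%), 13 between anti-IgG and anti-IgM (16.9%), 4 between LT20 and rituximab (2.67%) and 56 between lines (33.5%). On the second probe set they were 13 falls of the genes, 30 rises and 37 falls of the lists and 3 untreated differences. These 13 falls were of DAPP1 (12) and INPP5D (1). The second probe sets of PIK3R3, PIK3CD and DEPTOR had no group mean above 100 and were not tested, so the lower count does not mean that their calls failed. Anti-IgG and anti-IgM arrays compared directly gave 7 differences, and with an offset of 16 the difference between LT20 and rituximab was not called (0). With 1 array left out the counts ran from 12 to 13 rises and 20 to 23 falls of the genes, 48 to 52 rises and 57 to 61 falls of the lists, 9 to 11 untreated differences, 0 to 0 for the fragment, 3 to 4 for anti-IgG against anti-IgM, 1 to 1 for LT20 against rituximab and 26 to 29 between lines. Numbers did not pair arrays (correlations of same-numbered deviations between -0.284 and 0.214), and with the replicate block 13 rises and 22 falls were called and no call changed. Of 156 changes, quantile normalization ended 3 calls and an offset of 16 ended 5, all of PIK3R3, isotype arrays as reference ended 8, and removing the filter or the trend ended none. Changes that turned sign against the other control triplicate were PIK3R3 with the anti-IgM fragment in SUDHL4 (0.53), PIK3R1 in OciLy18 with isotype (-0.32), rituximab (-0.34), LT20 (-0.33), anti-IgM (-0.22) and the fragment (-0.33), and DAPP1 there with LT20 (-0.30). In Z138 they were SGK1 with isotype (-0.80) and rituximab (-0.09), PIK3CD with isotype (0.21), rituximab (0.17) and LT20 (0.17), INPP5D with rituximab (-0.38), anti-IgM (-0.43) and anti-IgG (0.33), PIK3R1 with LT20 (-0.33), anti-IgM (-0.22), the fragment (-0.04) and anti-IgG (0.01), and DAPP1 with LT20 (-0.36). Against the isotype arrays INPP5D (0.40) and PIK3R1 (0.09) turned with anti-IgG in Z138. None of these had been called, and the cause was not tested.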
